A study of Homo sapiens with 24 samples.

Results

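The comparison of interleukin 1 beta (IL1b) with tumor necrosis factor alpha (TNFa) in TeloHAEC rested on 4 of the series' 24 libraries, all prepared on library day 1. TeloHAEC is an aortic endothelial line immortalized with telomerase, here in its parental genotype and in medium containing VEGF. IL1b 1.1 and IL1b 1.2 came from cells given 10 ng/ml IL1b for 24 h, and TNFa 1.1 and TNFa 1.2 from cells given 10 ng/ml TNFa for 24 h. ChIP-seq peak lists of H3K27ac, the acetylation of histone H3 at lysine 27 that marks promoters and enhancers in use, were compared. The members were all autosomal peaks with a −log10 q of 2 or more, which gave 53697 and 45801 peaks with IL1b and 46981 and 52146 with TNFa, or 66097 regions once overlapping peaks were merged. Unstimulated TeloHAEC in the same medium gave 2 libraries on day 1 and 2 on day 0. The day 1 control lists were shorter than those of the cytokines, at 28447 and 43088 peaks, so a missing control peak is weak evidence. Eahy926, an endothelial hybrid line grown without added VEGF, gave 4 libraries of the same cytokines on day 1. The bin tests, which were fitted over all ChIP libraries, also drew on Eahy926 controls (2 libraries on day 0 and 2 on day 1). They drew as well on 2 libraries of each line labelled VEGF, treated for 24 h. The labels call the replicates biological without saying whether the cultures were separate, so p-values measure only the spread between these libraries.

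IL1b and TNFa bind unrelated receptors. IL1b signals through a receptor complex that recruits MYD88 and the IRAK kinases, and TNFa through TNFRSF1A, TRADD and RIPK1. Both routes meet at the IKK kinases, which release NF-kB, and at the MAP kinases, which act on AP-1. In endothelium both cytokines are known for inducing leukocyte adhesion molecules and chemokines. The direct comparison asked which regions carry more of the mark under one cytokine than under the other.

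The promoters of 4 genes are shown first because regions at or near these genes are described in the results. CSF2 encodes the growth factor GM-CSF, CXCL8 the neutrophil chemokine interleukin 8, IL1B the cytokine itself, and TNFAIP3 the NF-kB feedback inhibitor A20. The sequences are the 250 bases before each start in RefSeq (GRCh38.p14), at chr5:132073539-132073788 on the plus strand, chr4:73740319-73740568 on the plus strand, chr2:112836780-112837029 on the minus strand and chr6:137867009-137867258 on the plus strand. Capitals mark matches on either strand to the AP-1 motif TGANTCA or to the NF-kB consensus GGGRNWYYCC, and the matches do not overlap. In these, N is any base, R is A or G, W is A or T, and Y is C or T.
CSF2: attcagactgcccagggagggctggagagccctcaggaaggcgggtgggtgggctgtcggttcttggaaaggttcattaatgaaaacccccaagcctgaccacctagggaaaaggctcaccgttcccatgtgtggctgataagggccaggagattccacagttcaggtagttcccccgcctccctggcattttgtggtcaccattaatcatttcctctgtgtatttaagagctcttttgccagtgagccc
CXCL8: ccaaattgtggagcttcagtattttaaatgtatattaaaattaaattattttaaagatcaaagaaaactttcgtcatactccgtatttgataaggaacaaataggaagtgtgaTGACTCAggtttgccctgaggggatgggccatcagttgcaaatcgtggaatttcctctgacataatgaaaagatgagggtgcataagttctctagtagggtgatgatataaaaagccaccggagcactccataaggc
IL1B: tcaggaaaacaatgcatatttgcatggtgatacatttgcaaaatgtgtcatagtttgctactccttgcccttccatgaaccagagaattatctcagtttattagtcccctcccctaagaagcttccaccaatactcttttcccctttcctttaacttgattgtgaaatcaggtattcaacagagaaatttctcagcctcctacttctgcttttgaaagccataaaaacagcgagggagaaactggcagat
TNFAIP3: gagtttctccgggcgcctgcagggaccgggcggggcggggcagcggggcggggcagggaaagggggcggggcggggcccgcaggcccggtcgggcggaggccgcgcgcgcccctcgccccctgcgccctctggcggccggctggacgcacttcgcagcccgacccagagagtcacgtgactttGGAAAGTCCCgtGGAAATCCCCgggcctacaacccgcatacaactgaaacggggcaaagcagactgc
CXCL8 held 1 AP-1 match starting 137 bases before the gene, and TNFAIP3 held 2 NF-kB matches starting 67 and 55 bases before it. The CSF2 and IL1B stretches held neither set of letters. Sites that depart from these letters were not searched for in any of the promoters, so a stretch without capitals may still hold one. Of 33725 autosomal promoters of that length, 6.54% held the AP-1 motif and 5.24% the NF-kB consensus.

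The maps of the cytokines were nearly as alike as replicate maps of one cytokine. Tags per library ranged from 4611342 to 5912920 and covered length from 24.1 to 29.5 Mb, with IL1b 1.1 the deepest and longest and IL1b 1.2 the shallowest and shortest. The Jaccard index, the shared part of the base pairs covered by either of 2 lists, was 0.545 for the IL1b pair, 0.545 for the TNFa pair and between 0.525 and 0.562 for the 4 pairs across cytokines. The replicate pairs thus lay inside the range of the cross-cytokine pairs. Of the 66097 merged regions, 29445 (44.5%) had a peak in all 4 libraries, and these shared regions held 75.7% of the covered length.

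Height told the cytokines apart slightly more than position did. Height was measured as the summit pileup, the number of fragments stacked at a peak's highest point, and scaled to 1000000 tags per library (the depth-scaled pileup). Over the shared regions, the SD of the log2 difference between libraries was 0.39 for the IL1b pair, 0.39 for the TNFa pair and 0.41 to 0.43 for the pairs across cytokines. These pairs share libraries and are given as description.

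**Figure D1:**
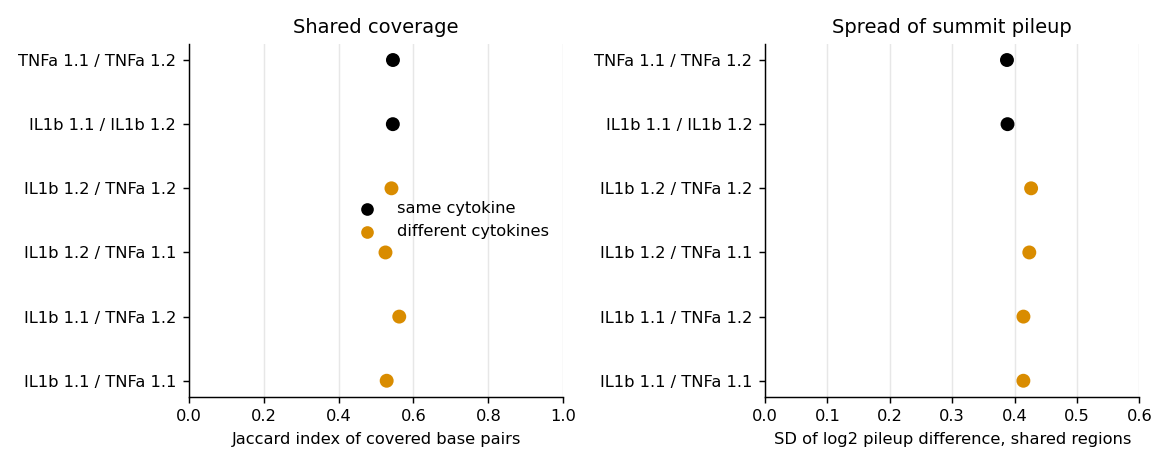
Likeness of each pair of TeloHAEC cytokine libraries. Left, Jaccard index of covered base pairs (0 to 1). Right, SD over 29445 shared regions of the difference in log2 summit pileup. Black points are replicate pairs and orange points pairs across cytokines. The black points lie among the orange ones on the left (0.545 and 0.545 against 0.525 to 0.562) and just below them on the right (0.39 against 0.41 to 0.43).

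One shared region passed the test across all 29445, and it lay on the IL1b side. It spans chr8:48437743-48438756 (hg19) inside SPIDR, a gene of homologous recombination repair, 212 kb from the start of CEBPD, a transcription factor of the C/EBP family induced in acute inflammation. Its pileup was 71 and 55 with IL1b and 12 and 12 with TNFa. The depth-scaled pileup was 12.01 and 11.9 against 2.26 and 2.15. Both IL1b libraries stood far above both TNFa libraries, with almost no spread within a cytokine. The log2 difference was 2.39 ± 0.24 (SE, n = 2 libraries per cytokine), with an adjusted p of 0.00211 by limma with Benjamini-Hochberg adjustment. Calls made up 0.0034% of the shared regions tested. Without any single library its log2 difference was 2.24 to 2.49 and it was called, but such fits leave 1 library in an arm, take the spread from the other cytokine's pair alone, and called 1 to 55 regions toward IL1b.

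In depth-scaled pileup, the region in unstimulated cells was below both IL1b libraries. The day 0 controls had depth-scaled pileups of 3.97 and 4.49 there, in a peak that also reached the neighbouring region, day 1 control 1.2 had 2.85, and day 1 control 1.1 had no peak. The day 0 libraries were prepared on another day and were deeper, at 18387194 and 20952578 tags. No Eahy926 cytokine library had a peak in the region.

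The region belongs to a cluster of H3K27ac peaks along SPIDR. The neighbouring region, chr8:48436282-48437614, had pileups of 68 and 49 with IL1b and 18 and 20 with TNFa, a log2 difference of 1.61 ± 0.24 with adjusted p = 0.0619. In the same 100 kb, regions at chr8:48425327-48426084 and chr8:48426266-48427492 had log2 differences of 0.61 and 0.85, and the fifth, at chr8:48460277-48461226, had 0.10. The last of these had 16 and 10 fragments with IL1b and 14 and 10 with TNFa, so the groups overlapped there. The shared region nearest the CEBPD start had 30 and 35 fragments with IL1b and 18 and 13 with TNFa. Its difference of 1.09 ± 0.29 had an unadjusted p of 0.00185 and an adjusted p of 0.30 in the same limma fit, so it did not pass.

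The difference was seen in height and not in height over local background. The deposited fold enrichment divides pileup by a local background. In the called region it was 3.46 and 3.50 with IL1b and 3.27 and 3.38 with TNFa. The control peaks there stood above both IL1b values, at 4.97 and 6.14 on day 0 and 4.39 in day 1 control 1.2. The order of controls and IL1b was thus the reverse of that in depth-scaled pileup. Analysed as fold enrichment, the log2 difference between the cytokines was 0.05 with an adjusted p of 0.998 by limma. With quantile scaling it was 2.37 and the adjusted p rose to 0.0584, and with all summits of the region summed it was 3.31 with an adjusted p of 0.0586.

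**Figure D2:**
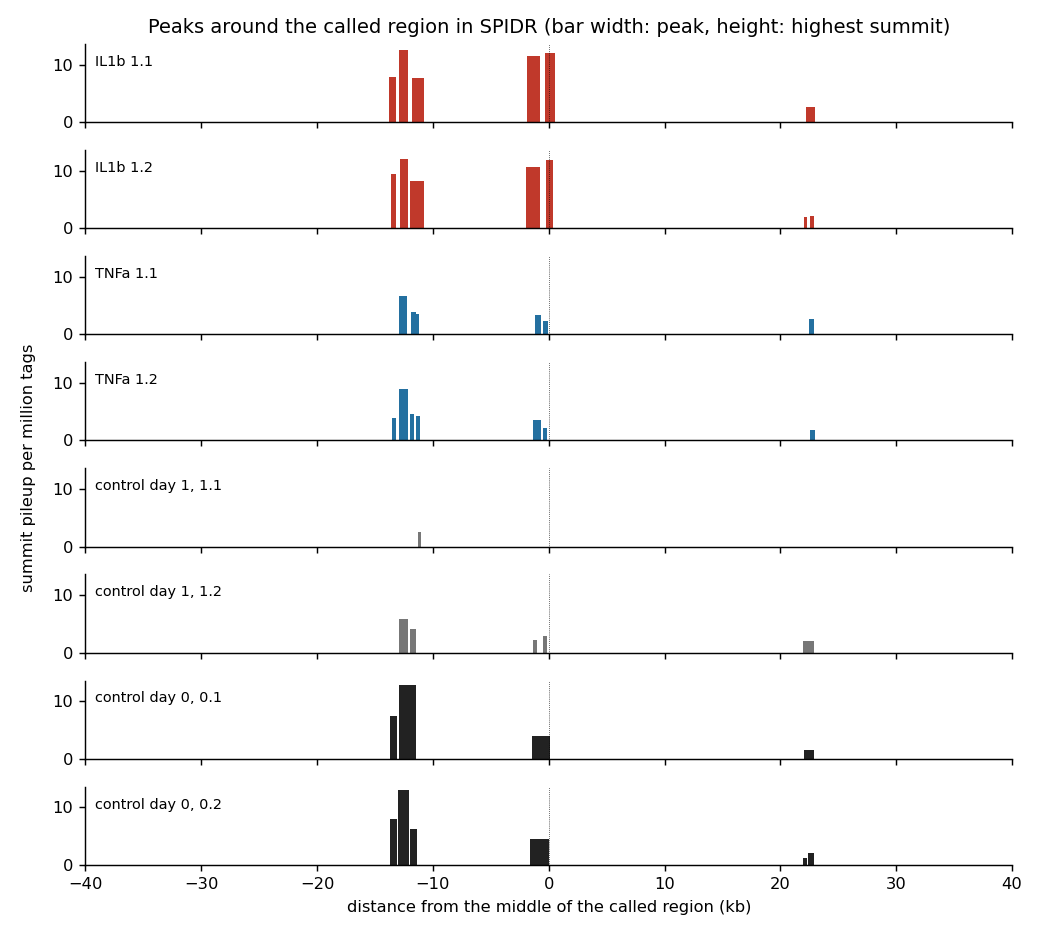
Peaks around the called SPIDR region in 8 TeloHAEC libraries. The x axis is distance from the middle of the region in kb, bar width is the peak and bar height its highest summit pileup, depth-scaled. At 0 kb the bars reach 12.01 and 11.9 with IL1b, 2.26 and 2.15 with TNFa, 3.97 and 4.49 in the day 0 controls, and 2.85 in 1 day 1 control.

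The other 19 regions named by rank are given as values, since none passed. Of these, 9 lay on the IL1b side, with log2 differences of 1.48 to 1.68. One, at chr6:121824760-121825414, lay 68.0 kb from GJA1, the gap junction protein connexin 43, and had pileups of 34 and 33 with IL1b and 11 and 10 with TNFa (adjusted p = 0.0619). It had no peak in either day 1 control or in day 0 control 0.1, and 13 fragments in day 0 control 0.2. Another pair lay in BMPER, a secreted modulator of BMP signalling first described in endothelial precursors, and one in DOCK4, an activator of Rac.

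The other 10 lay on the TNFa side, with log2 differences of −1.62 to −1.21. The region at chr5:55199388-55200084, in IL31RA, a receptor subunit for interleukin 31, had 21 and 14 fragments with IL1b and 46 and 46 with TNFa (adjusted p = 0.105). The region at chr1:23214788-23215876 in EPHB2, an ephrin receptor, had 9 and 13 with IL1b and 35 and 32 with TNFa (adjusted p = 0.123). At chr19:6639703-6640212, 30.4 kb from TNFSF14, which encodes the TNF family ligand LIGHT, pileup was 8 and 6 with IL1b and 14 and 19 with TNFa (adjusted p = 0.171). At unadjusted p under 0.05, 1402 regions (4.76%) leaned to IL1b and 1129 (3.83%) to TNFa.

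Summing pileup over neighbouring regions gave more calls. In 4466 windows of 100 kb that held at least 3 shared regions, limma called 13 windows higher with IL1b (0.291% of windows) and 2 higher with TNFa (0.0448%), 0.336% in all. This summary was added after the region values had been seen. Both libraries of one cytokine lay above both of the other in all 15 called windows, as they did in 25.3% of all windows toward IL1b and 9.4% toward TNFa. Such shares were counted on depth-scaled pileup without median centring. The log2 differences and tests used centred values, so the balance of the shares between directions is not on the scale of the tests. The counts were unsteady. No window was called by limma without IL1b 1.1, without TNFa 1.1 or without TNFa 1.2, 2 were called without IL1b 1.2, and 2 with quantile scaling. Nor was any called when 2 regions sufficed to form a window, where 367 windows had an unadjusted p under 0.05 in each direction, although all 15 kept their direction without any single library.

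The SPIDR window had the largest difference. Its 5 regions summed to 275 and 208 fragments with IL1b and 101 and 118 with TNFa, or 46.5 and 45.1 against 18.98 and 21.2 depth-scaled (log2 1.13 ± 0.12, adjusted p = 0.00104 by limma, and 0.00740 with quantile scaling). A pair of adjoining windows inside BMPER also passed. In the first, 4 regions summed to 149 and 122 with IL1b and 61 and 85 with TNFa (log2 0.91 ± 0.12), and in the second to 180 and 115 with IL1b and 81 and 92 with TNFa (log2 0.74 ± 0.13). All 8 BMPER regions had positive differences, as had 15471 of all 29445 shared regions. Both windows were called on the sums of these regions, so the shared sign adds no support. KYNU, which encodes kynureninase of tryptophan breakdown, held 4 regions summing to 78 and 69 with IL1b and 40 and 47 with TNFa (log2 0.76 ± 0.12).

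CSF2 was the cytokine gene with a called window. The window's 5 regions lay 11.5 to 29.2 kb from the CSF2 start and summed to 288 and 240 fragments with IL1b and 159 and 190 with TNFa, or 48.7 and 52.1 against 29.9 and 34.1 depth-scaled (log2 0.60 ± 0.11, adjusted p = 0.047 by limma). The window was called on the sum of the 5 regions, so a shared sign adds no support. All 5 had positive log2 differences, from 0.28 to 1.01, none of which passed by itself. The region at chr5:131429411-131430269 had the largest of these, 62 and 54 against 26 and 32, with 11 and 14 in the day 1 controls. All 4 cytokine libraries stood above both day 1 controls there.

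Peaks at CSF2 itself sat partly in different places. Both IL1b libraries had peaks over the gene, at chr5:131409609-131410392 and chr5:131410941-131411297 in IL1b 1.1 and at chr5:131409640-131411127 in IL1b 1.2, with pileups of 36, 36 and 34. Both TNFa libraries had a peak just before it, at chr5:131408989-131409286 and chr5:131408900-131409353, with pileups of 19 and 40, and so did both day 0 controls and day 1 control 1.2. TNFa 1.2 had a further peak at chr5:131409679-131409949, with a pileup of 21, inside the stretch covered in both IL1b libraries. Peaks of both day 1 controls also reached into that stretch. They lay at chr5:131409394-131409668 in control 1.1 and at chr5:131409550-131409822 in control 1.2, with pileups of 11 and 12. The fold enrichment of the IL1b peaks over the gene, 2.54 to 2.65, was below that of the TNFa peaks before it, 3.12 and 5.33. Whether the local background set which peaks were listed was not tested.

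A further called window lay near AREG, which encodes amphiregulin, an EGF receptor ligand, with 3 regions 93.8 to 101.2 kb from the AREG start. Pileup summed to 169 and 143 with IL1b and 92 and 103 with TNFa (log2 0.68 ± 0.11). One called window held the SKA2 and PRR11 genes of mitosis, and one lay 54.6 kb from RFLNA. The other 5 on the IL1b side lay more than 100 kb from any gene start placed here, with log2 differences of 0.61 to 0.87.

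The 2 windows higher with TNFa had their regions 56.9 to 79.3 kb from the start of COL6A1, a collagen VI chain, and inside STIM1, the calcium sensor of store-operated calcium entry. The first summed to 48 and 30 fragments with IL1b and 65 and 73 with TNFa (log2 −0.86 ± 0.14, adjusted p = 0.0258 by limma). The second summed to 35 and 29 with IL1b and 46 and 52 with TNFa (log2 −0.62 ± 0.11, adjusted p = 0.0438), and without median centring its adjusted p was 0.0734. All 3 regions of each had negative differences, as had 13972 of all 29445 shared regions. Both windows were called on the sums of these regions, so the shared sign adds no support. The next 8 windows on that side by p did not pass, with log2 differences of −0.67 to −0.49 and adjusted p of 0.0591 to 0.102.

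**Figure D3:**
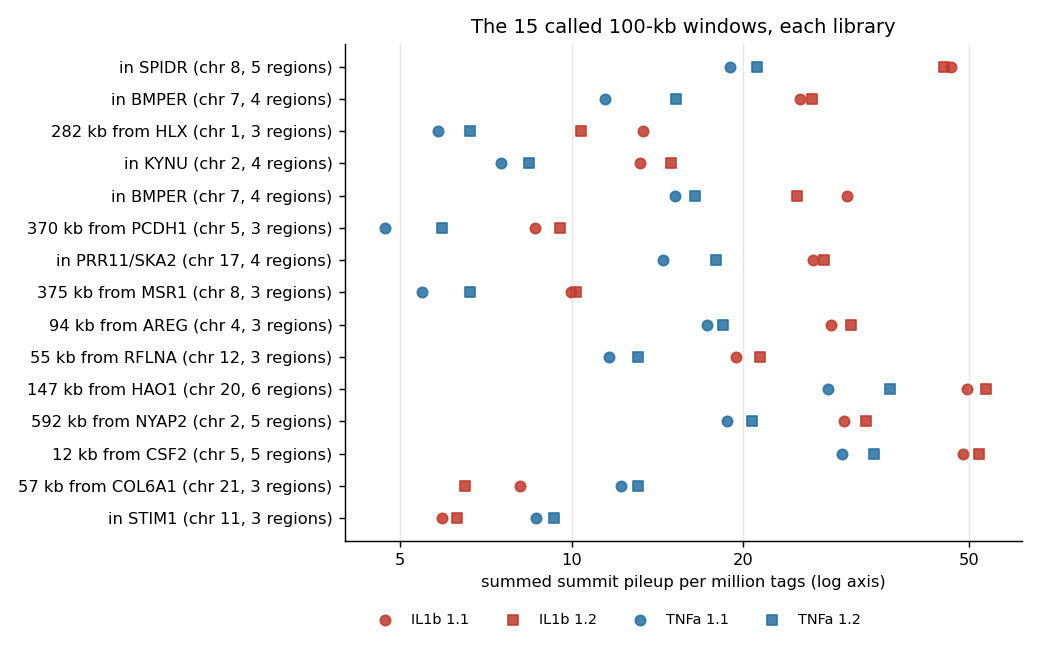
Summed depth-scaled summit pileup (log axis) in the 15 called 100-kb windows, 1 point per library, in order of log2 difference within each direction. Labels give the gene that the shared regions overlap, otherwise the distance from them to the nearest gene start placed. Red IL1b points lie right of blue TNFa points in the first 13 lines and left of them in the last 2 (COL6A1 and STIM1).

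The CXC chemokine cluster on chromosome 4 leaned to IL1b without passing the test. The window holding CXCL8 summed to 180 and 152 fragments with IL1b and 102 and 130 with TNFa (log2 0.53 ± 0.12, unadjusted p = 0.000571, adjusted p = 0.0916 by limma). The window holding CXCL6 and CXCL1 summed to 106 and 69 with IL1b and 53 and 53 with TNFa (log2 0.69 ± 0.14, adjusted p = 0.0591). The window of CXCL2 and CXCL3 summed to 259 and 238 with IL1b and 184 and 221 with TNFa (log2 0.30 ± 0.12, adjusted p = 0.324). In these 3 windows both IL1b libraries lay above both TNFa libraries, as they did in 25.3% of all windows. The CXCL5 window, in the same cluster, summed to 123 and 97 with IL1b and 85 and 114 with TNFa. Its log2 difference was 0.15 ± 0.12 (unadjusted p = 0.224, adjusted p = 0.668 by limma). The region at the CXCL8 start, whose promoter with its AP-1 match is printed above, had 45 and 48 fragments with IL1b and 26 and 30 with TNFa (log2 0.74 ± 0.25, unadjusted p = 0.00986, adjusted p = 0.414). A second shared region within 1 kb of that start, chr4:74606475-74608082, overlaps the gene. It had 42 and 30 fragments with IL1b and 29 and 30 with TNFa (log2 0.27 ± 0.24, unadjusted p = 0.273, adjusted p = 0.834 by limma). Over the chemokine list, 7 windows could be measured. All 7 had a positive difference, as had 2363 of all 4466 windows. None of the 7 was called, and 4 had an unadjusted p under 0.05, beside 6.9% of all windows toward IL1b. The windows of one cluster are neighbours and not independent.

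The IL1A and IL1B locus leaned the same way. The window of 9 shared regions summed to 362 and 284 fragments with IL1b and 199 and 255 with TNFa (log2 0.51 ± 0.12, adjusted p = 0.10 by limma). The region at the IL1B start had 44 and 39 fragments with IL1b and 21 and 30 with TNFa (log2 0.73 ± 0.25, unadjusted p = 0.00982, adjusted p = 0.413). Neither day 1 control had a peak in it, while the deeper day 0 controls had 39 and 47 fragments there (2.12 and 2.24 depth-scaled). A region 2.41 kb from that start had 44 and 36 against 17 and 21 (log2 1.08, adjusted p = 0.231). Of the 7 measured starts of the IL1 receptor pathway list, 4 had positive and 3 negative differences (median 0.09), and of its 9 windows 4 were positive and 5 negative. The adaptor MYD88 had 16 and 17 with IL1b and 11 and 12 with TNFa (log2 0.53, unadjusted p = 0.0523), and the kinase MAP3K7 had 22 and 10 against 22 and 17 (log2 −0.38, unadjusted p = 0.228).

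Gene starts were then described by list, using for each gene the shared region within 1 kb of its start that had the highest mean pileup. Of 317 listed genes, 297 had a start that could be placed and 125 had such a region, while 105 had no peak in any of the 4 libraries. No start region was called, and the median log2 difference over the 125 was −0.05, beside 0.01 over all shared regions. At an unadjusted p under 0.05 there were 3 of 125 toward IL1b, where 4.76% of all shared regions fell, and 9 of 125 toward TNFa, where 3.83% fell. Of the 9, 2 genes share a region.

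Among NF-kB subunits and feedback inhibitors, none of 12 measured starts passed the test. Negative differences were found at 10 of the 12 (median −0.18), at 67 of the 125 listed starts and at 13972 of all 29445 shared regions. Of the 12, 3 had an unadjusted p under 0.05. RELB, a subunit of the alternative NF-kB pathway, had 16 and 18 fragments with IL1b and 27 and 39 with TNFa (log2 −0.93 ± 0.26, unadjusted p = 0.00306, adjusted p = 0.323 by limma). NFKBIE, an inhibitor of NF-kB, had 16 and 11 with IL1b and 17 and 24 with TNFa (log2 −0.60, adjusted p = 0.523). TNFAIP3, whose promoter above holds 2 NF-kB matches, had 18 and 13 with IL1b and 23 and 22 with TNFa (log2 −0.55, adjusted p = 0.553), while the 7 shared regions of its 100-kb window together had a log2 difference of 0.07 (unadjusted p = 0.579). In all 3 starts both TNFa libraries lay above both IL1b libraries, as they did in 12.6% of all shared regions, where 23.8% had the reverse. These shares too were counted without median centring. NFKBIA, the main feedback inhibitor, had 41 and 42 against 54 and 56 (log2 −0.40, unadjusted p = 0.128), and RELA had 29 and 33 against 28 and 38 (log2 −0.07).

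No start of the antigen processing and interferon lists passed either. Of 12 measured starts of the MHC class I list, 9 had negative differences (median −0.15). TAP1, the peptide transporter, and PSMB9, an immunoproteasome subunit, share 1 start region, with 15 and 10 fragments for IL1b and 18 and 32 for TNFa (log2 −0.96 ± 0.27, unadjusted p = 0.00275, adjusted p = 0.319). The TNFa libraries differed from each other by more than TNFa 1.1 did from IL1b 1.1. Of 22 interferon response starts, 15 were negative (median −0.17), while of the 15 windows of that list 7 were positive and 8 negative (median −0.004). At the starts, IFIH1, a sensor of viral RNA, was the 1 with an unadjusted p under 0.05, at 13 and 8 fragments with IL1b and 17 and 16 with TNFa (log2 −0.69, adjusted p = 0.462).

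Of 14 measured AP-1 and immediate early starts, 10 had positive and 4 negative differences (median 0.09), and none passed. The largest was at CEBPD, as given above, and 2 on the negative side had an unadjusted p under 0.05. JUNB had 29 and 17 fragments with IL1b and 40 and 38 with TNFa (log2 −0.81 ± 0.26, adjusted p = 0.372), and EGR1 had 11 and 13 against 18 and 22 (log2 −0.73, adjusted p = 0.448). Among matrix proteases, MMP9, a gelatinase, had 15 and 13 with IL1b and 21 and 29 with TNFa (log2 −0.82 ± 0.24, adjusted p = 0.354). Of 8 measured TNF receptor pathway starts, 5 were negative (median −0.37), with MAP3K8, a kinase upstream of ERK, at 19 and 7 against 15 and 17 (log2 −0.46).

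At the starts of 4 other genes known to respond to these cytokines, values were closer together. ICAM1, a leukocyte adhesion molecule, had 53 and 42 fragments with IL1b and 48 and 61 with TNFa (log2 −0.19). IL6 had 47 and 37 against 37 and 37 (log2 0.18), CCL2 84 and 70 against 65 and 69 (log2 0.20), and CSF3 61 and 75 against 45 and 66 (log2 0.32). Their windows leaned further in part. By limma the CCL2 window had log2 0.26 (unadjusted p = 0.0363, adjusted p = 0.377). The CSF3 window had log2 0.31 (unadjusted p = 0.0414, adjusted p = 0.387). The IL6 window had log2 0.08 (unadjusted p = 0.524), and ICAM1 had no measured window. The largest start differences of the remaining lists were −0.54 at NOTCH2, 0.44 at ALOX5AP, 0.36 at SOX17, −0.33 at TGFBR2 and −0.28 at THBD. None of these starts had an unadjusted p under 0.05.

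**Figure D4:**
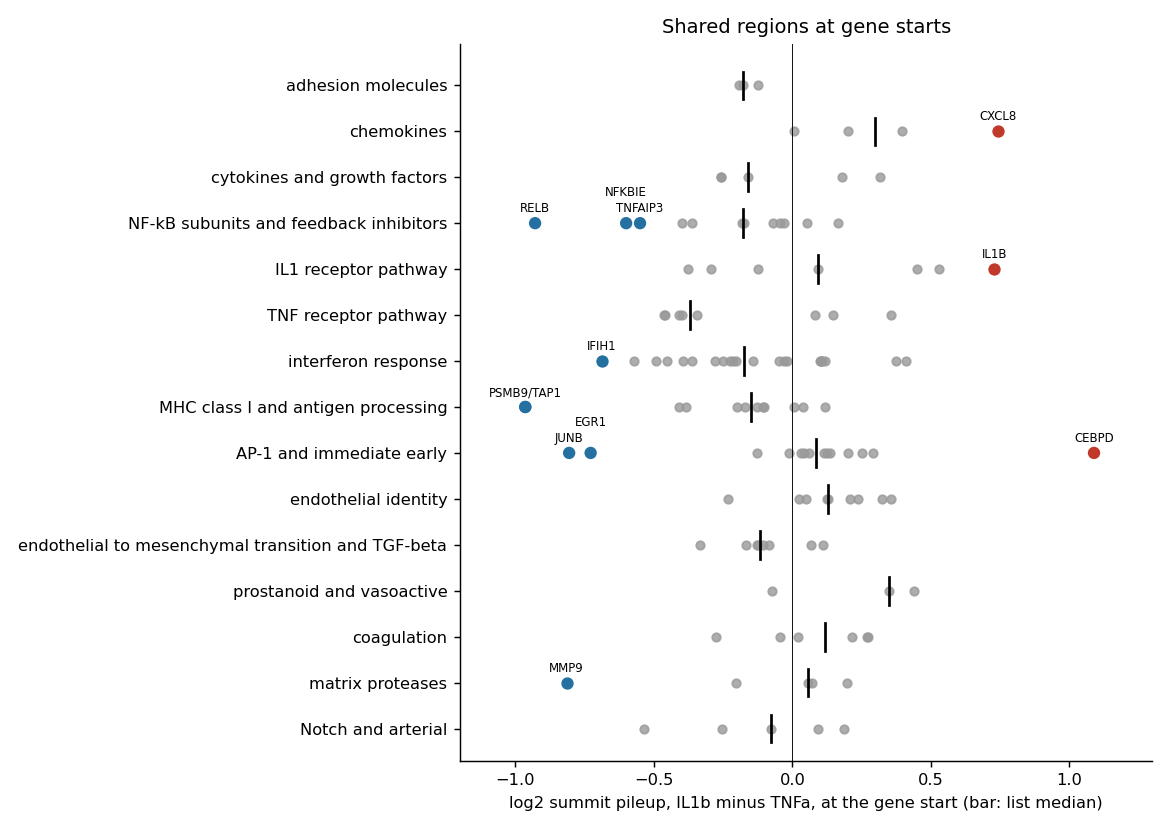
Log2 difference in summit pileup (IL1b minus TNFa) at the shared region of each measured gene start, by list. Grey points are genes with an unadjusted p of 0.05 or more, red and blue points those below it toward IL1b and TNFa, and black bars list medians. CXCL8, IL1B and CEBPD are the red points, at 0.74, 0.73 and 1.09, and RELB lies at −0.93. No point passed adjustment over all 29445 regions.

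As a check of the line, shared regions covered the starts of 5 genes that mark endothelium, TIE1, TEK, CDH5, ROBO4 and ESAM, with differences of 0.03 to 0.33, and ROBO4 had 97 and 77 fragments with IL1b and 81 and 87 with TNFa. Of 14 endothelial marker starts placed, 5 had a shared region and 5, ERG, FLI1, CLDN5, EGFL7 and SOX18, had no peak. Of the leukocyte, smooth muscle, epithelial and fibroblast markers, 1, 1, 1 and 0 starts had a shared region. Those 3 were LAPTM5, ACTA2 and KRT18, with differences of 0.02 to 0.11, and PTPRC and EPCAM starts had no peak.

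Regions held by both libraries of one cytokine and by neither of the other were few and low. There were 1893 for IL1b (2.86% of merged regions) and 1705 for TNFa (2.58%), covering 0.729 and 0.627 Mb. Pairs of libraries from different cytokines gave counts of the same order, from 750 for IL1b 1.2 with TNFa 1.1 to 2860 for IL1b 1.1 with TNFa 1.2. The median pileup in exclusive regions was 10 fragments, beside 21 in shared regions. No test was made, since an exact permutation test of 2 libraries against 2 cannot reach a p of 0.05. Leaving out 1 library at a time moved the IL1b count to 3512 to 8056 and the TNFa count to 3218 to 6719. Dropping a library loosens the rule, since that library no longer has to hold or lack the region, so these counts do not measure stability.

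The widest exclusive regions were about 1 kb long. With IL1b they lay in COMMD7, a regulator of NF-kB (pileups of 21 and 19), in PLPP3, a lipid phosphatase of endothelium (24 and 15), in ADGRV1 (20 and 14), 43.2 kb from ARRDC3 (14 and 11) and in SLC6A4 (10 and 9). The COMMD7 and PLPP3 regions had peaks in both day 0 controls and in 1 day 1 control. With TNFa they lay 18.7 kb from ATP5MC1 (9 and 7), in RBM6 (11 and 10), 49.9 kb from CASP4, an inflammatory caspase (10 and 14), in RNH1 (6 and 9) and 121 kb from ERRFI1 (10 and 11). The CASP4 region had 81 and 89 fragments in the deeper day 0 controls and 11 in 1 day 1 control.

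Covered length was also compared in 36576 bins of 10 kb, scaled to each library's total and fitted together with the 16 other ChIP libraries. Limma called 115 bins higher with IL1b (0.314%) and 85 higher with TNFa (0.232%), 0.547% in all. Many of these bins entered the test only through the group in which they were high, so the counts are given as a description and not as support. Median scaled coverage was 560.5 bp in the IL1b bins and 409 bp in the TNFa bins, and 92 of 115 and 79 of 85 had no coverage in either library of the other cytokine. At an unadjusted p under 0.05, 2.9% of bins lay toward IL1b and 2.75% toward TNFa. For such bins the estimate of spread includes many groups in which every library is at 0, which makes the standard error small. With the 4 libraries alone limma called no bin, and 1391 and 1429 bins had an unadjusted p under 0.05. Without IL1b 1.1 the TNFa count was 248, and without TNFa 1.2 the IL1b count was 285.

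The 10 bins with the largest differences per direction are given by their coverage. The log2 differences between a covered group and a group at 0 are set by the 200 bp added to each value. The bin at chr5:131410001-131420000 overlaps CSF2 and had 621 and 1143 bp with IL1b and 0 in both TNFa libraries and all 4 controls. These zeros depend on the edge of the bin. TNFa 1.2 had a peak over CSF2 ending at chr5:131409949, and day 1 controls 1.1 and 1.2 had peaks ending at chr5:131409668 and chr5:131409822. The bin's log2 difference was 2.39 with 200 bp added, 4.16 with 50 bp and 0.90 with 1000 bp, and with the 4 libraries alone its adjusted p by limma was 0.315. On the TNFa side, a bin in PELI1, a ubiquitin ligase of IL1 and Toll-like receptor signalling, had 824 and 724 bp with TNFa, 0 with IL1b and in the day 1 controls, and 188 and 272 bp in the day 0 controls. A bin in PVT1 had 670 and 768 bp with TNFa and 0 with IL1b, and 626 and 362 bp in the day 1 controls. A bin in ABHD8 had 663 and 812 bp with TNFa, 0 with IL1b and 560 and 297 bp in the day 1 controls. In these last 2 bins the coverage missing with IL1b was present without any cytokine.

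The remaining named bins on the IL1b side lay in SLC1A7, ADGRV1, TSPAN18, SLC6A4, GIGYF2 and LARS2 or 39.2 to 90.6 kb from ARRDC3, FEM1C and PRL. On the TNFa side they lay in RBM6 and in a bin overlapping PTDSS2 and RNH1, or 10.2 to 140.7 kb from ATP5MC1, ZNF608 and ERRFI1, with 2 far from any placed gene. Over the 20 named bins the size of the log2 difference was 2.11 to 2.58 with 200 bp added, 3.84 to 4.38 with 50 bp and 0.74 to 1.00 with 1000 bp.

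In Eahy926 given the same cytokines, 113 bins were higher with IL1b (0.309%) and 742 with TNFa (2.03%), 2.34% in all. Of the 115 TeloHAEC bins higher with IL1b, none was called in the same direction in Eahy926 and 8 were called in the opposite one. Of the 85 higher with TNFa, 3 were called in the same direction and 1 in the opposite one. The test of the difference between lines, an interaction term in the same fit, called 470 bins (1.28%). Of these, 381 were positive (1.04%) and 89 negative (0.243%), and 72 of the 115 and 57 of the 85 were among them. The 115 and 85 had been selected on the TeloHAEC difference, which is part of this term, so that overlap is not support. Eahy926 had no coverage under either cytokine in 70 of the 115 and 56 of the 85, and those groups at 0 add no spread to the test. IL1b 1.2 of Eahy926 had the shortest list of its line, at 14.1 Mb beside 19.5 to 25.0 Mb in the other 3 cytokine libraries, and its part in the count of bins higher with TNFa was not tested.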

How the data were processed

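The 4 compared libraries were analysed with the other 16 ChIP libraries, and input libraries were not used. Per the submitters' processing notes, Bowtie2, MACS2 and build hg19 were used. Per the file headers, the authors called peaks in each library with MACS2 2.1.1.20160309 without a control file, at p 0.001, with a local background of 10000 bp. The deposited values used were the pileup signal (fragments at the summit), the ratio called fold enrichment, and −log10 p and q. Tags per library, per the file headers, were 3843129 to 7122108 on day 1 and 18387194 to 21135399 on day 0.

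Peaks past the threshold were merged where they overlapped by at least 1 bp. Pileup per 1000000 tags was log2 transformed, centred on each library's median over shared regions and fitted with limma 3.58.1 in R 4.3.3. The 2 residual degrees of freedom were supplemented by limma's empirical Bayes step. That step drew the variance of each region toward a value estimated over all regions. Whether the groups overlapped in a region or window was judged on pileup per 1000000 tags before centring. Covered bp in 10-kb bins (2 or more libraries holding 500 bp or more) was scaled, log2 transformed with 200 bp added, and fitted over 20 libraries and 10 group means. Calls have a two-sided Benjamini-Hochberg adjusted p under 0.05. The fits were checked on simulated data.

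Members, gene lists and tests were chosen with earlier results of these data known. Named bins and regions were the 10 largest called per direction, filled by smallest p, and the 5 widest exclusive regions. Listed genes were named as the largest of their list, and others (among them NFKBIA, RELA, MYD88, MAP3K7, IL6, CCL2 and starts with an unadjusted p under 0.05) were chosen after their values were seen. No hg19 annotation was used: hg19 positions of 414 genes were written from general knowledge, those near leading regions after these were seen, and 412 were kept because their offset from RefSeq GRCh38 was stable within 5 kb. "Nearest" is among these genes, and distances carry that uncertainty. The planned test over windows of all genes was therefore not run.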

Additional observations from a re-analysis of the deposited data

Results flagged for a closer look

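The test of the difference between lines called 470 of the 10-kb bins, where IL1b minus TNFa in TeloHAEC differed from IL1b minus TNFa in Eahy926. It called 16 of the 20 named bins. The named bins were chosen by their TeloHAEC difference, which is itself part of this term, so the count is a description and not support. The log2 values depend on the 200 bp added, since at least 1 group is at 0 in each. On the IL1b side the differences (TeloHAEC minus Eahy926, log2) were 2.53 at the ADGRV1 bin, 2.47 at TSPAN18, 2.44 near ARRDC3, 2.41 at SLC6A4, 2.39 at CSF2, 2.39 at GIGYF2, 2.34 near FEM1C, 2.31 near PRL and 2.28 at LARS2. On the TNFa side they were −2.36 near ATP5MC1, −2.28 at PELI1, −2.28 at chr3:106920001-106930000, −2.72 at ABHD8, −1.84 at PVT1, −2.17 at PTDSS2 and RNH1, and −2.11 at chr12:90350001-90360000. Eahy926 had coverage under both cytokines at ABHD8 and PVT1 alone among these 16, and in the other 14 its own cytokine libraries were at 0.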

How the results depend on the processing

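Counts are given as higher with IL1b and higher with TNFa. The 115 and 85 called bins became 204 and 126 at −log10 q of 5 or more, 276 and 228 with equal numbers of top peaks, 284 and 265 at equal covered length, 236 and 147 with quantile scaling, 181 and 118 without scaling, 47 and 16 with 1000 bp added, 486 and 334 without the filter, 30 and 28 in 50-kb bins, and 0 and 0 by limma with the 4 libraries alone (1391 and 1429 at an unadjusted p under 0.05). Of the 200 called bins, 104 were still tested at −log10 q of 5 or more, of which 54 kept their direction and 18 their call. With equal numbers of top peaks 96 were tested, 48 kept their direction and 16 their call, and at equal covered length 56, 14 and 5. Leaving out 1 library gave 117 to 285 and 102 to 248, the highest without TNFa 1.2 (285) and without IL1b 1.1 (248). The 1 called region became 60 and 14 without centring, 0 by limma with quantile scaling (1209 and 1248 at unadjusted p under 0.05), fold enrichment (854 and 844) or summed summits (1145 and 1002), and 3 and 1 at −log10 q of 5 or more, and leaving out 1 library gave 1 to 55 and 1 to 17. The called SPIDR region was itself not tested at −log10 q of 5 or more, since its TNFa peaks had −log10 q of 2.56 and 2.82. On fold enrichment the neighbouring SPIDR region reversed to −0.71 (adjusted p = 0.795). The 13 and 2 called windows became 29 and 2 without centring, 2 and 0 with quantile scaling, 17 and 6 in 50-kb windows, 4 and 0 in 200-kb windows, 0 and 0 with 2 regions a window, 8 and 2 at −log10 q of 5 or more, and 0 to 2 and 0 to 0 without 1 library. Of the 15 called windows, only 3 were tested at −log10 q of 5 or more, and those 3 kept their call. The SPIDR window was not among them. The 1893 and 1705 exclusive regions became 1415 and 1129 at −log10 q of 5 or more and 1050 and 920 with peaks within 500 bp merged. They became 164 and 123 when present at that stricter threshold and absent from the full deposited lists. Leaving out 1 library, which loosens the rule, gave 3512 to 8056 and 3218 to 6719. The interaction's 381 positive and 89 negative bins became 218 and 235 at equal covered length and 749 and 214 with the 8 cytokine libraries alone. Where an alternative did not itself change the features or libraries tested, the cause was not tested.

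Equal replicate numbers did not pair the libraries: deviations correlated at −0.008 over shared regions and −0.030 over bins. With the replicate number as a block, limma called 0 and 0 bins (1445 and 1396 at unadjusted p under 0.05), 1 and 0 regions, and 53 and 25 windows. Most named bins were not tested under those 3 alternatives, so the settings that could be computed for them do not show stability. Depth limits regions with few fragments. Gene windows over all genes were not run.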
